A study of Homo sapiens with 4 samples.

Results

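The calpain genes CAPN1, CAPN2, CAPN15 and CAPNS1 were examined in the crosslink site lists of the study. A site belonged to a gene when the gene label given by the authors held exactly its symbol, which gave 327 of the 158922 sites in the PDCD4 list and 119 of the 111361 sites in the IgG list, for 4 of the 14387 genes named in either list. The cells were MCF10A, an established breast epithelial line that is not transformed, of WT genotype, grown with horse serum, epidermal growth factor, insulin, hydrocortisone and cholera toxin. RNA was bound to protein with UVC light, and 2 replicates were immunoprecipitated with an antibody against PDCD4 and 2 with IgG as the control. Each list pools its 2 replicates, so the spread between replicates is unknown here and every interval below covers counting error only. All samples came from the same cell line, and the comparison asks which RNAs were recovered with PDCD4 beyond those recovered with IgG.

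Calpains are cysteine proteases that cut selected proteins at a limited number of positions, and the classical forms need calcium. CAPN1 and CAPN2 encode the large catalytic subunits of μ-calpain and m-calpain, each of which pairs with the small regulatory subunit encoded by CAPNS1, and calpastatin, encoded by CAST, inhibits these dimers. CAPN15 encodes a non-classical calpain with zinc finger motifs in its amino-terminal part, and it lacks the calcium-binding domain through which the classical forms pair with the small subunit. In adherent cells, calpains are known for cutting proteins that link the cytoskeleton to adhesion sites. PDCD4 is an RNA-binding protein that has also been reported to bind the translation factor eIF4A. The authors did not find eIF4A among the protein partners of PDCD4 in MCF10A cells.

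In individual-nucleotide resolution crosslinking and immunoprecipitation (iCLIP), reverse transcription tends to stop at the crosslinked nucleotide, so a site is 1 nt wide and its score is the number of cDNAs that mark it. Over the whole series, the PDCD4 list held 409308 cDNAs with scores up to 87, and 1.48% of its sites had a score above 5. The IgG list held 276139 cDNAs with scores up to 22, and 0.69% of its sites had a score above 5. All 9 markers fixed for breast epithelial cells had sites in the PDCD4 list, KRT14 with only 3 cDNAs and none in the IgG list, whereas all 11 markers of fibroblasts, leukocytes and endothelial cells were without a site in either list.

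The 4 genes lay on the forward strand of GRCh38. CAPN15 (ENSG00000103326) spans chr16:527712-554636 with 14 exons in its reference transcript (the MANE Select transcript, used for all exon and intron numbers). CAPN1 (ENSG00000014216) spans chr11:65180566-65212006 with 22 exons. CAPN2 (ENSG00000162909) spans chr1:223701593-223776018 with 21 exons. CAPNS1 (ENSG00000126247) spans chr19:36139953-36150353 with 11 exons. None of the sites of the 4 genes carried a second gene label.

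The sequences under groups of PDCD4 sites in CAPN15 are shown first, because most of the calpain cDNAs of the PDCD4 list lay in this gene. Sites within 20 nt of each other were joined into a group, and of the 11 groups with at least 12 cDNAs the 7 that fit within 30 nt and have no other copy in the genome are printed. Letters are DNA of the transcript strand, and capitals mark the nucleotides listed as PDCD4 crosslink sites.
CAPN15 intron 3, 49 cDNAs, chr16:538941-538970: tggtGCTTTTTTTtTTTttggctctGtctc
CAPN15 intron 3, 23 cDNAs, chr16:542173-542202: tgaaccgcaTttTatcTATtCatggacgct
CAPN15 intron 3, 16 cDNAs, chr16:546191-546220: gctcgcggagAcTtTttgTTtttgtgcttc
CAPN15 intron 3, 14 cDNAs, chr16:539057-539086: cccggatagtgtTtAgTTttctataaagac
CAPN15 intron 3, 13 cDNAs, chr16:540053-540082: tctctgtctGTttAttTttGttgtgtgtca
CAPN15 intron 3, 13 cDNAs, chr16:544038-544067: ggcgccctcaAtcagtaaGtcatctacggg
CAPN15 exon 4, 12 cDNAs, chr16:547785-547814: cctcgggcagtgACaTCattgacctggccg
Of the 39 nucleotides marked in these 7 windows, 24 were T (U in the RNA), and the last 2 windows had only 1 such T between them. The first window held 13 sites between positions 538945 and 538966. The groups not printed were 3 that span more than 30 nt, with 29, 19 and 18 cDNAs, and a group of 21 cDNAs at 8 sites between positions 536426 and 536436 whose sequence has many copies elsewhere in the genome.

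The sites with the highest scores are shown next, each with 12 nt on either side and the crosslinked nucleotide in capitals. These are the CAPN15 sites with a score of 7 or 8, the highest sites of the other genes with all ties, and the highest IgG site of CAPN15.
CAPN15 intron 2, score 8, chr16:535405-535429: ccttgctgccctCacggggtgtgtg
CAPN15 intron 3, score 8, chr16:539332-539356: agaggggagtgtAtcggactctggg
CAPN15 intron 3, score 8, chr16:544044-544068: ctcaatcagtaaGtcatctacgggc
CAPN15 intron 3, score 7, chr16:538416-538440: gaccgttctgccTacggggcaggcc
CAPN15 intron 3, score 7, chr16:545648-545672: ctcattctcctcTctggagctggtg
CAPN15 exon 4, score 7, chr16:547342-547366: cccacgcaggctCtcgctgccacgg
CAPNS1 exon 11, score 8, chr19:36150238-36150262: aggcggccaagcTccagaccgtgcc
CAPN1 exon 6, score 5, chr11:65186171-65186195: gtaaatggcagcTacgaggccctgt
CAPN1 exon 10, score 5, chr11:65188655-65188679: caagagccggacCatccgcaaatgg
CAPN1 exon 22, score 5, chr11:65211511-65211535: ctgggccccaccCattgccaagcca
CAPN2 exon 1, score 5, chr1:223712598-223712622: gccccgacctttCtctgcgcagtac
CAPN2 exon 1, score 5, chr1:223712608-223712632: ttctctgcgcagTacggccgccggg
CAPN2 exon 9, score 5, chr1:223752862-223752886: tctcaccagcgaTacctacaagaag
CAPN15 intron 3 in the IgG list, score 6, chr16:541253-541277: agctccggccgaCaaggactgggga
The 3 CAPN15 sites of score 8 marked a C, an A and a G, none of them inside a T run. The CAPN15 exon 4 site was coding, and the CAPNS1 site belonged to the 3′UTR.

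Of the 4 genes, CAPN15 had the largest excess in the PDCD4 list. Its PDCD4 signal was 689 cDNAs at 225 sites, with a median score of 3 and a highest score of 8. Its IgG signal was 97 cDNAs at 33 sites, with a median score of 3 and a highest score of 6. As a share of its list this was 16.8 per 10000 cDNAs for PDCD4 and 3.51 for IgG, a 4.75-fold difference (3.84 to 5.87, 95% interval from the counts of both lists, with 1 cDNA added to each sum), or 2.25 on the log2 scale (1.94 to 2.55). The exact Poisson intervals of the shares, 15.6 to 18.1 for PDCD4 and 2.85 to 4.29 for IgG, did not overlap. The amount of each RNA in the cells was not analysed here, and more binding per RNA cannot be told apart from more RNA within a list.

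CAPNS1, the small subunit gene, also had a higher share in the PDCD4 list, on far fewer cDNAs. It had 49 PDCD4 cDNAs at 13 sites, from a score of 2 to a score of 8, and 12 IgG cDNAs at 4 sites that all had a score of 3. The shares were 1.20 and 0.435 per 10000 cDNAs, a log2 ratio of 1.38 (0.50 to 2.26).

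CAPN1, the large subunit of μ-calpain, had 63 PDCD4 cDNAs at 22 sites with scores up to 5 and 29 IgG cDNAs at 11 sites with scores up to 3. Its shares of 1.54 and 1.05 per 10000 cDNAs gave a log2 ratio of 0.53 with an interval from -0.10 to 1.15. A difference was thus not detectable with these numbers of cDNAs. CAPN2, the large subunit of m-calpain, had 195 PDCD4 cDNAs at 67 sites and 166 IgG cDNAs at 71 sites. Its shares were 4.76 and 6.01 per 10000 cDNAs, a log2 ratio of -0.34 (-0.63 to -0.04), and this direction turned when sites with a score of 1 or 2 were left out, as described below.

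**Figure D1:**
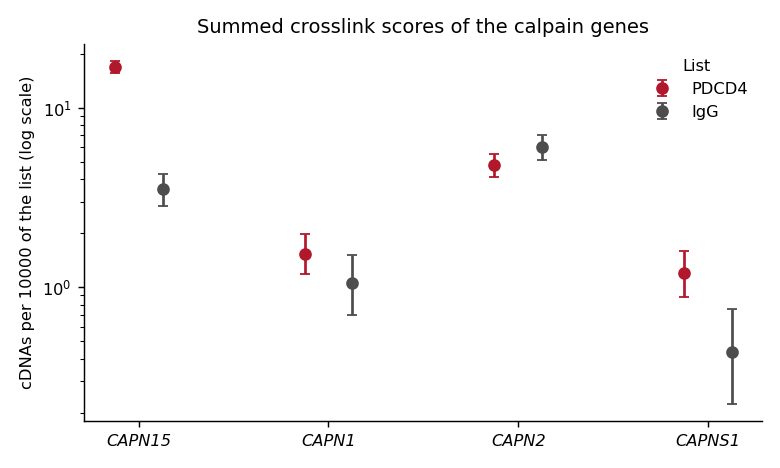
Summed cDNAs of each calpain gene per 10000 cDNAs of its list (log axis), for PDCD4 (red) and IgG (grey), with exact Poisson 95% intervals that cover counting error only. CAPN15 stood at 16.8 in the PDCD4 list against 3.51 in the IgG list, while the intervals of the lists overlapped for CAPN1 and for CAPN2. Points are to be compared between lists within a gene, since the sums are not divided by gene length.

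Of the 4 genes, CAPN15 and CAPNS1 had a log2 ratio of 1 or more, beside 18.8% of the 9585 genes with at least 10 cDNAs over both lists, and none had a ratio of -1 or less, beside 18.1% of those genes. The interval lay above 0 for CAPN15 and CAPNS1 (18% of genes). The median over the 4 genes was 0.95, and the median over all 9585 genes was -0.08. Ordered by ratio, CAPN15 stood 575th of the 9585 genes, CAPNS1 1184th, CAPN1 2832nd and CAPN2 5737th. Among the 797 genes with at least 100 PDCD4 cDNAs, whose ratios had a median of 0.24, CAPN15 stood 31st and CAPN2 597th. This filter, also used for the 330 genes below, takes the PDCD4 sum only. It thus favours higher ratios and sets no minimum for IgG cDNAs. With only sites of a score above 2, CAPN15 stood 799th and CAPN2 2594th of 7800 genes with a median of -0.18, and 56th and 198th of the 330 genes with at least 100 such PDCD4 cDNAs.

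**Figure D2:**
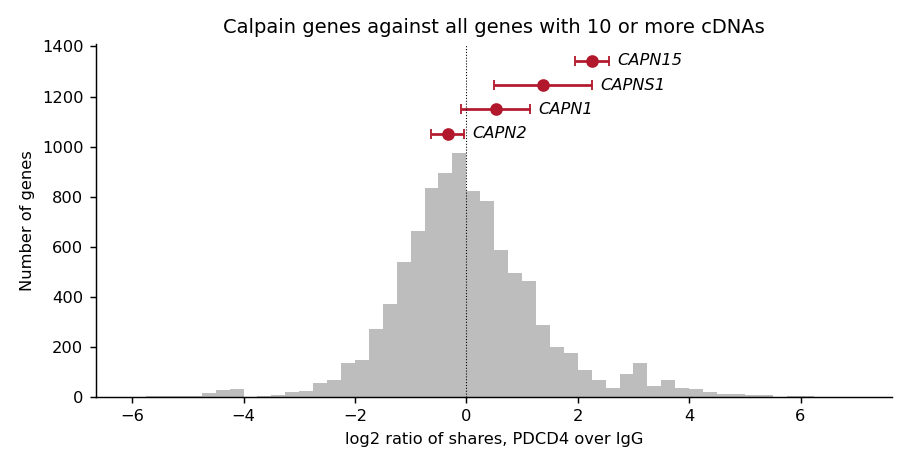
Distribution of the log2 ratio of shares, PDCD4 over IgG, over 9585 genes (grey bars, number of genes in steps of 0.25), with the 4 calpain genes as points and their 95% counting intervals. CAPN15 at 2.25 and CAPNS1 at 1.38 lay in the right part of the distribution, CAPN1 at 0.53 and CAPN2 at -0.34 near its middle. A ratio of a gene with no cDNA in a list depends on the 1 cDNA added to each sum.

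The 6 differences between pairs of the 4 genes were computed. The log2 ratio of CAPN15 was higher than that of CAPN2 by 2.58 (2.16 to 3.01) and than that of CAPN1 by 1.72 (1.03 to 2.42). Its difference from CAPNS1 was 0.87, with an interval from -0.06 to 1.80 that included 0. CAPN1 stood above CAPN2 by 0.86 (0.17 to 1.56), and CAPN2 differed from CAPNS1 by -1.71 (-2.64 to -0.78). CAPN1 and CAPNS1 did not differ beyond counting error (-0.85, -1.93 to 0.23). With only sites of a score above 2, CAPN15 stayed above CAPN2 by 1.46 (0.95 to 1.961) and above CAPN1 by 1.34 (0.55 to 2.13). At that score the differences of CAPN1 from CAPN2 (0.12, -0.70 to 0.93) and of CAPN2 from CAPNS1 (-0.76, -1.73 to 0.20) had intervals that included 0, as did the other 2. These intervals are not adjusted for the number of pairs.

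At a score greater than 5, the filter named in the methods, CAPN15 alone of the 4 genes kept more than 1 PDCD4 site. CAPN15 kept 12 of its 225 PDCD4 sites, with 81 of 689 cDNAs, and 1 IgG site with 6 cDNAs. The log2 ratio was 1.59 (0.48 to 2.71), of 1 or more as in 27.5% of the 1520 genes with any such site, and its interval lay above 0 as in 3.62% of them. CAPNS1 kept 1 PDCD4 site of score 8 and no IgG site. CAPN2 kept no PDCD4 site and 1 IgG site of score 6, in the coding sequence of exon 1. CAPN1 had no site above 5 in either list. In CAPN15, 5.33% of the PDCD4 sites had a score above 5 (3.08 to 9.09%, Wilson interval), beside 1.48% of all PDCD4 sites, and 3.03% of its IgG sites (0.54 to 15.3%).

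The 12 CAPN15 sites above 5 were spread over the gene. By the reference transcript, 8 of them lay in intron 3, 2 in intron 2, 1 in intron 7 and 1 in exon 4, with scores from 6 to 8. By region over all annotated transcripts, 7 were intronic, 4 lay in an exon of a transcript without annotated coding sequence and 1 lay in coding sequence. No single site carried the gene: the highest score of 8 stood beside a sum of 689 cDNAs, and the ratio without the highest site of each list was 2.32 (2.01 to 2.64).

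Intron 3 held most of the CAPN15 signal in both lists. This intron (chr16:536143-546816, 10674 nt) had 494 PDCD4 cDNAs at 163 sites, or 72.4% of the PDCD4 sites of the gene (66.3 to 77.9%), and 65 IgG cDNAs at 23 sites, or 69.7% of the IgG sites (52.7 to 82.6%). Per length this was 46.3 PDCD4 cDNAs per kb and 6.09 IgG cDNAs per kb. The log2 ratio of shares within intron 3 was 2.34 (1.97 to 2.71).

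The rest of CAPN15 also had a higher share in the PDCD4 list. The other introns together held 116 PDCD4 cDNAs at 36 sites and 9 IgG cDNAs at 3 sites, a log2 ratio of 2.98 (2.05 to 3.91). The exons held 79 PDCD4 cDNAs at 26 sites and 23 IgG cDNAs at 7 sites, a ratio of 1.17 (0.51 to 1.83). Without intron 3, the gene had 195 PDCD4 and 32 IgG cDNAs, a ratio of 2.003 (1.47 to 2.54). Intron 3 was singled out after its values were seen, and the split was added then.

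Within intron 3, PDCD4 sites occurred in each of its 11 steps of 1000 nt, the last of them shorter. The most cDNAs lay between 2001 and 3000 nt from the start of the intron, with 117 at 40 sites, and the fewest between 5001 and 6000 nt, with 8 at 2 sites. IgG sites were absent from 3 of the 11 steps, where the PDCD4 sums were 27, 37 and 29 cDNAs. The hairpin of MIR3176 (chr16:543277-543366), which lies inside intron 3, and that of MIR5587 (chr16:535316-535368) in intron 2 had no site in either list.

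Part of intron 3 is annotated as an exon of another transcript. A 2725 nt exon of a second CAPN15 transcript, which has no annotated coding sequence, covers chr16:537134-539858 and held 168 PDCD4 cDNAs at 57 sites and 21 IgG cDNAs at 9 sites. The lists cannot tell whether these cDNAs came from that transcript or from intron 3 of the unspliced main transcript.

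Outside intron 3, exon 4 held 48 PDCD4 cDNAs at 15 sites, intron 2 held 48 at 17 sites, intron 7 held 44 at 12 sites and exon 14, with the 3′UTR, held 22 at 8 sites. PDCD4 sites lay in 4 of the 14 exons and 5 of the 13 introns. In coding sequence, CAPN15 had 64 PDCD4 cDNAs at 21 sites against 7 IgG cDNAs at 2 sites, a log2 ratio of 2.46 (1.40 to 3.51). Divided into 4 equal parts from the start codon, the coding sequence held 25, 27, 5 and 7 PDCD4 cDNAs. In the 3′UTR the 2 lists were close in cDNAs, 15 at 5 sites for PDCD4 and 16 at 5 sites for IgG, and the ratio of shares was -0.66 with an interval from -1.64 to 0.33.

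**Figure D3:**
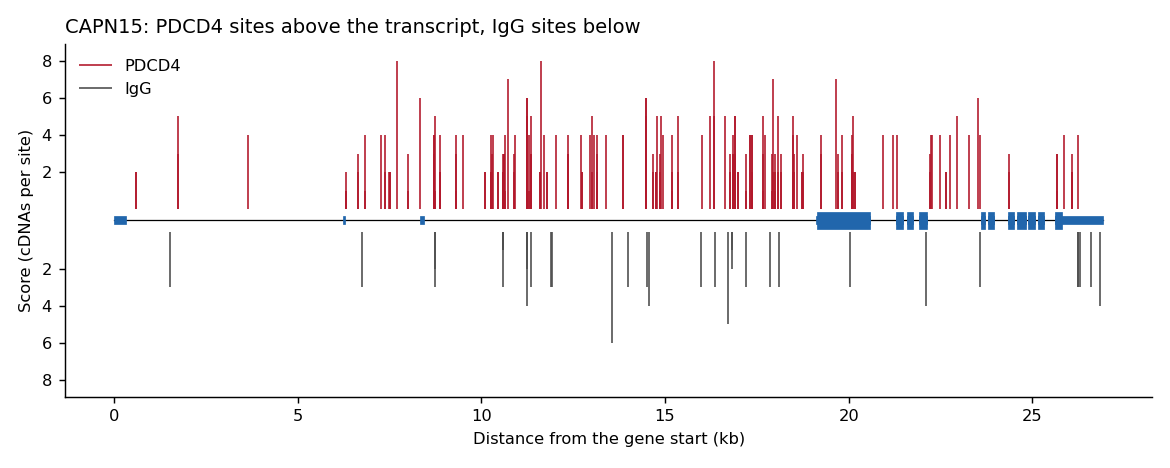
Score of each CAPN15 crosslink site (cDNAs per site) against its distance from the gene start in kb, with PDCD4 sites above and IgG sites below the reference transcript (line, introns; boxes, exons, taller where coding). PDCD4 sites were densest in intron 3, the long gap before the largest coding exon, with 163 of 225 sites there and none of a score above 8.

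By the reference transcript, the intronic signal of CAPN15 was dense in comparison with its coding sequence. The 610 intronic PDCD4 cDNAs include the 168 in the noncoding exon inside intron 3. The density without that exon was not computed, so a higher density in the other intron sequence was not shown. Over the reference transcript, the introns of CAPN15 had 27.7 PDCD4 cDNAs per kb and its coding sequence 19.6 per kb, a log2 difference of 0.48 (0.11 to 0.85). In the IgG list these were 3.36 and 2.15 per kb, a difference of 0.47 with an interval from -0.58 to 1.52. Over the 766 genes with introns, coding sequence and at least 100 PDCD4 cDNAs, the median was -3.16, and CAPN15 stood 25th. CAPN2, the only other calpain gene with at least 100 PDCD4 cDNAs, had 2.35 intronic cDNAs per kb and 12.4 per kb in coding sequence, a difference of -2.44 (-3.04 to -1.85), and stood 275th. Among the 97 introns with at least 100 PDCD4 cDNAs, whose median was 2.64 cDNAs per kb over a median length of 54265 nt, intron 3 of CAPN15 ranked 3rd by cDNAs per kb. An intron of its 10674 nt reaches 100 cDNAs only at a density above that median, so this rank follows in part from the filter.

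CAPN1 and CAPNS1 had their PDCD4 sites mostly in exons. In CAPN1, 20 of 22 PDCD4 sites were exonic by any annotated transcript, 7 of them coding and 11 within the 3′UTR, while 8 of 11 IgG sites were intronic. Exonic sites held 57 PDCD4 and 8 IgG cDNAs, a log2 ratio of 2.12 (1.11 to 3.13). Intronic sites held 6 PDCD4 and 21 IgG cDNAs, a ratio of -2.22 (-3.45 to -0.99). The ratio of 0.53 over the whole gene, whose interval included 0, thus joined an exonic part that was higher and an intronic part that was lower in the PDCD4 list, on few cDNAs in each. Exon 22, the last, held 31 of the 63 PDCD4 cDNAs at 13 sites, and 1 IgG site of score 3.

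In CAPNS1, the last exon held 38 of the 49 PDCD4 cDNAs, or 77.6%, at 10 of 13 sites, and 6 of the 12 IgG cDNAs at 2 sites. By the reference transcript these 10 sites belonged to the 3′UTR, while by other annotated transcripts 4 of them were coding, so this split depends on the transcript. Exonic sites of any transcript held 46 PDCD4 and 6 IgG cDNAs, a log2 ratio of 2.18 (1.03 to 3.33). The only intronic PDCD4 site had a score of 3, and 2 intronic IgG sites had 3 each.

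CAPN2 had sites throughout its length in both lists. Of its 67 PDCD4 sites, 38 were intronic, 10 were coding, 11 lay in exons of transcripts that have no coding sequence, 6 belonged to the 3′UTR and 2 to the 5′UTR. Of its 71 IgG sites, the numbers were 30, 13, 11, 16 and 1. Exonic sites held 75 PDCD4 and 97 IgG cDNAs, a log2 ratio of -0.93 (-1.37 to -0.50), and intronic sites held 120 and 69, a ratio of 0.22 (-0.20 to 0.65). Both 5′UTR sites had a score of 5 and lay 10 nt apart in exon 1, at positions 223712610 and 223712620.

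**Figure D4:**
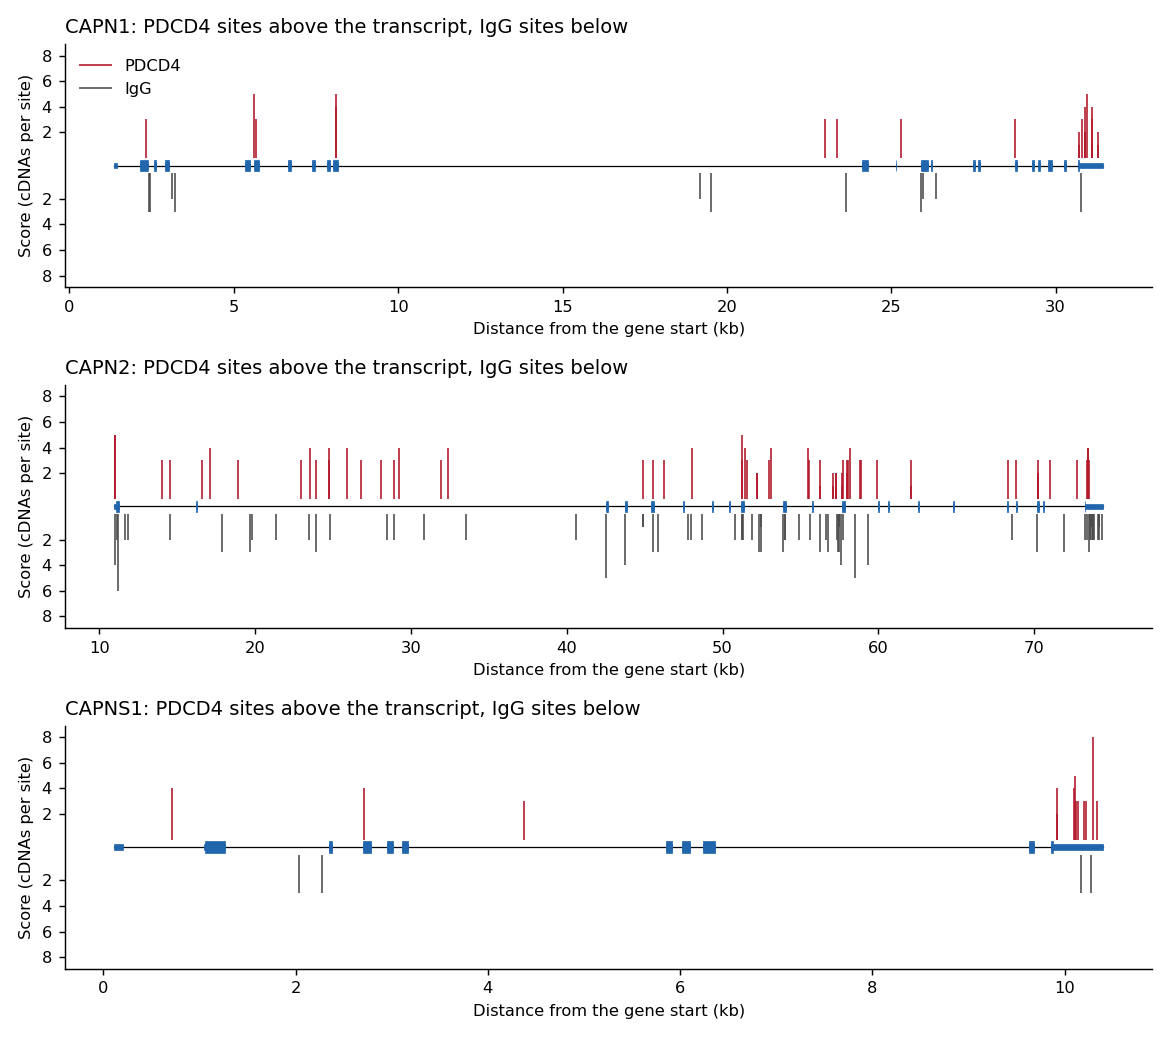
Scores of the crosslink sites of CAPN1, CAPN2 and CAPNS1 (cDNAs per site) against the distance from each gene start in kb, with PDCD4 above and IgG below the reference transcript (boxes, exons, taller where coding). CAPNS1 and CAPN1 had most PDCD4 cDNAs in exons, 38 of 49 and 31 of 63 in the last exon, and CAPN2 had sites along the whole transcript in both lists.

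The values of CAPN2 rested on the lowest scores, whose share in this gene differed between the lists. Over all genes, sites with a score of 1 or 2 made up 61.0% of the IgG list and 56.7% of the PDCD4 list. In the IgG list, 49 of the 71 CAPN2 sites (69.0%) had a score of 1 or 2, and 40 of these had no other listed site within 3 nt. In the PDCD4 list, 17 of 67 sites (25.4%) had a score of 1 or 2, and every one of them had a neighbour, so that the smallest sum within 3 nt was 3 cDNAs against 2 in the IgG list. With only sites of a score above 2, CAPN2 had 169 PDCD4 and 77 IgG cDNAs and a log2 ratio of 0.40 (0.01 to 0.79), the opposite direction. In exons the cDNAs at such sites numbered 56 and 47, and in introns 113 and 30.

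CAPN1 held a few such sites too. In CAPN1, 4 of the 11 IgG sites had a score of 2 without a neighbour within 3 nt, 3 of them in introns, while the PDCD4 list held no such site. With a score above 2, the intronic part of CAPN1 had 6 PDCD4 and 15 IgG cDNAs. CAPN15 and CAPNS1 had no such isolated site in either list. With a score above 2, the ratio of CAPN15 was 1.86 (1.53 to 2.18) and that of CAPNS1 1.16 (0.28 to 2.05).

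**Figure D5:**
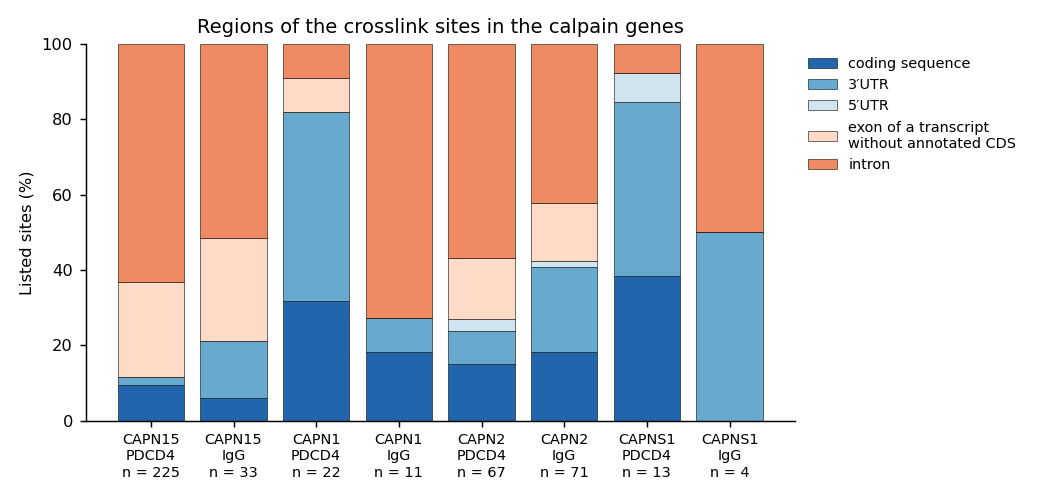
Share of listed sites (%) by region for each calpain gene and list, over all annotated transcripts (a site in several regions counts for the one highest in the legend). Exonic regions held 20 of 22 PDCD4 sites in CAPN1 and 12 of 13 in CAPNS1, while introns held 142 of 225 in CAPN15 and 38 of 67 in CAPN2.

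Few sites lay beside splice sites. Over the initial 50 nt of exons downstream of an intron, CAPN15 had 6 PDCD4 sites, CAPN1 had 3, CAPN2 had 7 and CAPNS1 had 1. In the last 50 nt of exons of the reference transcripts before an intron, none of the 4 genes had a PDCD4 site, over windows of 650, 1002, 949 and 484 nt in the same order. The IgG list had 0, 1, 4 and 0 sites after 3′ splice sites and 1, 0, 2 and 0 before 5′ splice sites. All PDCD4 sites in these windows thus lay after 3′ splice sites, on few sites per gene. The log2 ratio of the windows in CAPN15, with 1 added to each number of sites, had an interval from -0.22 to 5.83, which included 0. No such interval was computed for the other genes. Within 100 nt, the numbers in the same order were 0, 3, 7 and 1 PDCD4 sites before 5′ splice sites, beside 6, 7, 9 and 3 after 3′ splice sites. In short exons these wider windows overlap, so a site can be counted on both sides. An example is CAPN2 exon 19, with 5 PDCD4 sites in 117 nt. The wider counts therefore do not set the sides apart. Over the exons of all transcripts, CAPNS1 had 1 PDCD4 site in the last 50 nt.

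By the reference transcript, the most frequent base at the PDCD4 sites of CAPN15 was U in introns and C in exons. The intervals take sites as independent, although many are adjacent. Groups around T runs of intron 3, at 538945 to 538966 and 536426 to 536436, held 13 and 8 of them. The second of these groups lies in sequence with many genomic copies. In introns of the reference transcript, U made up 47.7% of the PDCD4 sites (95 of 199, 40.9 to 54.7%), beside 19.9% of all intron positions, and G made up 13.6% (9.495 to 19.0%), beside 32.5%. In its exons, C was the most frequent base with 15 of 26 PDCD4 sites (57.7%, 39.0 to 74.5%), beside 35.6% of exon positions, and U made up 6 of 26 (23.1%, 11.0 to 42.1%), beside 14.9%. The 57 sites in the noncoding exon inside intron 3 count as intronic here. With them as exonic, the share of U in exons was 45.8% (35.5 to 56.5%), beside 17.1% of the exon positions of any transcript. In introns it was then 44.4% (36.45 to 52.6%), so the difference between introns and exons depends on how that exon is counted. The IgG sites of CAPN15 in reference introns marked a C at 11 and a U at 10 of 26 sites. CAPN15 is rich in G and C, at 69.2% in exons and 64.1% in introns, and the 21 nt around its PDCD4 sites had 62.3% and 50.3%. Around all PDCD4 sites of the list this was 42.3% and around all IgG sites 39.1%, with a U at 46.7% and 51.6% of them.

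In CAPN2, U made up 30 of 49 PDCD4 sites in reference introns (61.2%, 47.3 to 73.6%), beside 25.8% of intron positions, and 23 of 41 IgG sites (56.1%). In its exons, U marked 8 of 18 PDCD4 sites and C 6. In CAPN1 exons, 8 of 18 PDCD4 sites marked a U and 5 a C, and in CAPNS1 exons U and C each marked 4 of 11.

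Some PDCD4 and IgG sites of CAPN15 lay close to each other, and the number that site density alone would give was not computed. The methods describe that IgG crosslink sites were subtracted before peaks were called, yet 721 positions were in both lists, 3 of them in CAPN15 (538949, 538950 and 544914) and 1 in CAPN2. Of the 33 IgG sites of CAPN15, 15 lay within 20 nt of a PDCD4 site, while 44 of its 225 PDCD4 sites lay within 20 nt of an IgG site. The T run of the window with 49 PDCD4 cDNAs above held the IgG group with the most cDNAs of the gene too, 7 at 3 sites. Without the shared positions, the ratio of CAPN15 was 2.33 (2.01 to 2.64).

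Some of the sites lay in sequence that occurs elsewhere in the genome. For 23 of 225 PDCD4 sites of CAPN15, with 60 cDNAs, all of them in intron 3, the 30 nt after the site had at least 1 other exact copy in GRCh38, with up to 16757 copies in all for the T run near position 536430. The same held for 3 of its 33 IgG sites with 6 cDNAs, for 2 of 67 PDCD4 and 4 of 71 IgG sites of CAPN2, and for no site of CAPN1 or CAPNS1. Without these sites the ratio of CAPN15 was 2.21 (1.89 to 2.52), and that of CAPN2 was -0.27 with an interval from -0.57 to 0.03.

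The other 12 calpain genes had few cDNAs, and 6 of them had a site in either list. CAPN10, another non-classical calpain, had 38 PDCD4 cDNAs at 11 sites against 2 IgG cDNAs at 1 site, a log2 ratio of 3.13 with a wide interval (1.44 to 4.83). CAPN7 had 20 at 8 sites against 6 at 3 sites (1.02, -0.22 to 2.25), and CAPN8 had 3 at 1 site against 13 at 5 sites (-2.38, -3.98 to -0.77). CAPN3 had 6 cDNAs in the PDCD4 list and was listed at 0 in the IgG list, CAPN5 had 2 in each list, and CAPN6 had 2 in the IgG list only. CAPN9, CAPN11, CAPN12, CAPN13, CAPN14 and CAPNS2 had no site in either list.

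The inhibitor and the substrates of calpains were listed beside their proteases. CAST, encoding calpastatin, had 121 PDCD4 cDNAs at 49 sites and 64 IgG cDNAs at 28 sites, and its log2 ratio of 0.34 had an interval from -0.09 to 0.77. All 10 genes in a list of calpain substrates had sites in both lists. Of these, 3 had a log2 ratio of 1 or more, beside 18.8% of all genes, and 1 had a ratio of -1 or less, beside 18.1%, with a median of 0.60 beside -0.08 for all genes. The largest ratio was that of VIM, encoding the intermediate filament protein vimentin (4.85, 597 against 13 cDNAs), and the smallest that of PTK2, encoding focal adhesion kinase (-1.10, 191 against 277). FLNA, encoding the actin crosslinker filamin A, had the largest PDCD4 sum (658 against 96 cDNAs, 2.20), and SPTAN1, encoding the spectrin chain that calpains are best known to cut, had 232 against 68 (1.19).

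Genes whose PDCD4 cDNAs fell into the 5 regions in the most similar shares were looked up among 793 genes with at least 100 PDCD4 cDNAs. Likeness was the sum of the absolute differences in percentage points over the 5 regions. For CAPN15 these were DGKZ (4.88), PFKL (6.38) and MAPK8IP3 (11.1), with log2 ratios of 0.88, 2.16 and 0.61. For CAPN2 they were NEDD4L (4.46), AP2A2 (13.8) and MTA1 (14.9), with log2 ratios of -0.52, -0.32 and 1.19. The measure used only the PDCD4 list.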

How the data were processed

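Improved iCLIP was performed in MCF10A cells with 5 µg of PDCD4 antibody or with IgG, 2 replicates each. The authors used iCount and the genome of Ensembl release 88 (GRCh38), and the deposited lists hold raw cDNA counts (scores) per site of 1 nt that passed a false discovery rate filter, with the replicates of each immunoprecipitation pooled. The listed sites summed to 409308 PDCD4 and 276139 IgG cDNAs, and cDNAs outside listed sites are not counted. Aligner settings, the iCount version and how duplicate cDNAs were removed are not given in the sources used here. The filter on scores greater than 5 named in the methods is not in the lists, and values are given for every listed site and with that filter.

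The following was computed from the lists. Scores were summed per gene by the exact symbol in the label and divided by the total of the list, and log2 ratios used a pseudocount of 1. Shares have 95% Wilson intervals, shares of a list exact Poisson intervals, and ratios intervals from the counting error of both sums. cDNAs that share a site are not replicates. No p-value was computed, because the pooled lists leave no replicates, and the authors' test of differential binding could not be run. Regions came from GENCODE release 44, a later annotation of the same build (99.6% of sites had a label known to it, and 0 sites fell outside the chromosomes), with coding sequence taken before 3′UTR, 5′UTR, other exons and introns. Sites were joined into groups within 20 nt, and exact copies of the 30 nt after each site were counted on both strands of the genome.

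Genes named in the text were the 4 calpain genes, 12 other calpain genes, CAST, 10 calpain substrates of which at most 4 were shown, and for each of the 4 genes with at least 100 PDCD4 cDNAs the 3 genes with the most similar region shares. The genes and lists were chosen with earlier results of these data known. Intron 3, the isolated low scores, the genomic copies and the letters after a site were chosen after seeing the values. Protein sequences were not used here. Ratios were tested on simulated counts with known folds. Calculations used scipy 1.17.1, pandas 2.3.3 and numpy 2.4.6 under Python 3.11.15, and plots matplotlib 3.10.9.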

Additional observations from a re-analysis of the deposited data

How the results depend on the processing

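The log2 ratio of CAPN15 kept its direction under all 11 alternatives (1.59 to 2.33); it was 1.59 with a score greater than 5 and 1.86 with a score greater than 2. That of CAPN2 turned to 0.40 with a score greater than 2 and was otherwise below 0 (lowest -0.60, with numbers of sites in place of cDNAs); its interval reached above 0 without sites that have another genomic copy. CAPN1 (0.43 to 0.56) and CAPNS1 (0.97 to 1.50) kept their sign under 9 alternatives each. The interval of CAPN1 included 0 under every setting, so no direction was established for it. The interval of CAPNS1 included 0 with numbers of sites (-0.50 to 2.45). The share of CAPN15 PDCD4 sites in coding sequence ranged from 6.67% to 10.5%, and U at its exonic sites came to 60% with a score greater than 5, from 3 of 5 sites of which 4 lie in intron 3 of the reference transcript, and to 23.1% in exons of the reference transcript alone. Leaving out intron 3 or sites with another genomic copy, the bases in reference exons alone, and pair differences and ranks at a score greater than 2 were alternatives chosen after seeing the data. A score greater than 10 left no site in any of the 4 genes, and a score greater than 5 gave no ratio for CAPN1, CAPN2 or CAPNS1, which had no site in at least 1 list. No paired analysis was possible because each list pools its replicates, and for the same reason no replicate could be left out. Low numbers of cDNAs limit CAPN1 and CAPNS1 most, with 29 and 12 IgG cDNAs.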

Other observations

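After the sequences had been seen, the letters that follow a site were counted. The letters AC directly followed 15.6% of the CAPN15 PDCD4 sites (35 of 225, 11.4 to 20.9%), while AC starts at 4.33% of all positions of the gene on its strand. The letters ACG followed 5.33% (12 sites, 3.08 to 9.09%), beside 0.86% of the positions. Every ACG is also counted under AC. At IgG sites of CAPN15, AC followed 12.1% (4 of 33, 4.82 to 27.3%) and ACG followed 6.06% (2 of 33, 1.68 to 19.6%), so the share of ACG was no lower at IgG sites. Over all genes, AC followed 12.8% of PDCD4 sites and 10.9% of IgG sites, and ACG followed 2.32% and 1.61%. At a score greater than 5, AC followed 22.4% of all PDCD4 sites (20.8 to 24.2%) and 17.2% of all IgG sites (14.7 to 20.0%). Among the CAPN15 sites printed in the report, the site of score 8 in intron 2 and a site of score 7 in intron 3 were followed by ACGG. The letters were chosen on these sites, so their shares are descriptions.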
